A study of Homo sapiens with 18 samples.

Results

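The genes described here drive mitosis and cytokinesis. The set is a fixed list of 50 gene symbols looked up in a table of 13358 genes. Of the 50, 49 were found by symbol, and KIF23 was not analysed here. The list was drawn up by function, without use of a measured value in the selection rule, although earlier results of these data were known when it was made. The 18 RNA-seq libraries came from clones of HUDEP1, an immortalised human erythroid progenitor line whose growth depends on doxycycline. One clone carried full-length GATA1 (GATA1FL, here FL), and 2 clones, 1D5 and 1KI9, carried its short isoform (GATA1s), which lacks the N-terminal part of this erythroid transcription factor. Each clone was sampled under expansion and on day 4 of differentiation, with 3 libraries in each of the 6 groups. Both media held erythropoietin (3 U/mL), stem cell factor (50 ng/mL) and doxycycline (1 μg/mL). Expansion medium added dexamethasone (1 μM) to SFEM II. Differentiation medium was IMDM with serum, insulin, heparin and holo-transferrin, without dexamethasone. Because a single FL clone stands against the GATA1s clones, genotype and clone cannot be told apart. The labels do not say whether the 3 libraries of a group came from separate cultures, so p-values measure the spread between these libraries, which may be technical.

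A cell enters mitosis when CDK1 pairs with cyclins A2 and B. Aurora and Polo-like kinases build the spindle, condensins compact the chromosomes, and kinetochores attach them to microtubules. The spindle checkpoint holds the anaphase-promoting complex, a ubiquitin ligase, inactive until attachment is complete. CDC20 then activates the ligase, and FZR1 (CDH1) keeps it active as the cell leaves mitosis and through G1. UBE2C starts the ubiquitin chains and UBE2S extends them. Erythroblasts divide several times while they mature and leave the cell cycle before they lose their nucleus. Many mitotic promoters carry a cell cycle genes homology region (CHR) and CCAAT boxes, through which the DREAM and MYB-MuvB complexes and NF-Y act.

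Promoter windows of 4 members are shown because these genes mark part of the range of behaviour described below. CCNB1 and CCNB2 encode the B-type cyclins, NUSAP1 a spindle microtubule protein and FZR1 the late activator of the anaphase-promoting complex. The windows come from RefSeq (GRCh38.p14), run from 250 bases before to 50 bases after the annotated start, and lie on the plus strand at chr5:69166900-69167199 for CCNB1, chr15:59104896-59105195 for CCNB2, chr15:41332631-41332930 for NUSAP1 and chr19:3506061-3506360 for FZR1. Capitals mark a CHR (TTTGAA or TTCGAA) or a CCAAT box on either strand.
CCNB1: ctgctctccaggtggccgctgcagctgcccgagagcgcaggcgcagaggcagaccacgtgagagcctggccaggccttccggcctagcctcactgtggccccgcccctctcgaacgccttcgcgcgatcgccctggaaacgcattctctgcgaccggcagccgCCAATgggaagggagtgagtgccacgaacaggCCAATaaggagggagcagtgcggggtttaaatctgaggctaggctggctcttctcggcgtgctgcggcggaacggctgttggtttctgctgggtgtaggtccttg
CCNB2: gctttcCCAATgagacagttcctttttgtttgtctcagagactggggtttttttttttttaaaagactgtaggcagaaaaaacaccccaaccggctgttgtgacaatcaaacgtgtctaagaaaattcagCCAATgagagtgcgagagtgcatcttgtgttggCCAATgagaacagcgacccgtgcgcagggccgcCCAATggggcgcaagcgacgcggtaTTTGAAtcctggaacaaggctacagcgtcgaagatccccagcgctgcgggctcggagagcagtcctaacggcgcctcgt
NUSAP1: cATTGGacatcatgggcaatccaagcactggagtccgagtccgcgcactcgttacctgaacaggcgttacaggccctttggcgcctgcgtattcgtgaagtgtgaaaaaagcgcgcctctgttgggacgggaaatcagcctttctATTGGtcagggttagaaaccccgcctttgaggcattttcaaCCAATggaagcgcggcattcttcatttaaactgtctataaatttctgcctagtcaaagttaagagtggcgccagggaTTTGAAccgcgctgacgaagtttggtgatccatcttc
FZR1: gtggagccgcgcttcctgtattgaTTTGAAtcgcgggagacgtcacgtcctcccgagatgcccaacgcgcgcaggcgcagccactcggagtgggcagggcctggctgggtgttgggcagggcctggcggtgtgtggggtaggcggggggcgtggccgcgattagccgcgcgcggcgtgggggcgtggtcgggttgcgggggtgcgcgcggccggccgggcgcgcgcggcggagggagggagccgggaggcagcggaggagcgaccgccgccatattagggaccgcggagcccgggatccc
CCNB2 held 1 CHR and 4 CCAAT boxes, and NUSAP1 1 CHR and 3 CCAAT boxes. CCNB1 had 2 CCAAT boxes and no match to either CHR spelling in this window, and FZR1 a CHR and no CCAAT box. Other spellings of the CHR were not searched. RefSeq windows were found for 42 of the 49 members, and for none of AURKA, BIRC5, BUB3, RACGAP1, TPX2, TTK and UBE2C. The CHR letters stood in 30 of these 42 windows (71.4%), against 16.4% of 35116 RefSeq promoter windows and 11% of the 8780 with a gene in the test. A CCAAT box was present in 30 of 42 (71.4%), against 34.6% and 37.1%. Both motifs occurred together in 22 of 42 members (52.4%), against 6.4% and 4.7%. A GATA motif (AGATAA or TGATAA, or AGATAG or TGATAG) was found in 7 members (16.7%), against 25.0% and 14.2%. These matches describe letters in a window and no binding was measured.

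Values are levels per transcript length, so levels of different genes may be compared within an expansion library. At day 4 this holds only if the further scaling described next was the same for all genes of a library. Expansion values are TPM, a transcript's abundance per length scaled to a fixed library total, and day 4 values are TPM-like with a further scaling that no source used here describes. Library sums ran from 943734 to 950736 in expansion. At day 4 they ran from 1045885 to 1081251 in FL, 874292 to 945379 in 1D5 and 814583 to 857123 in 1KI9. Every FL sum was thus above every GATA1s sum at day 4. Globin transcripts averaged 38.8%, 19.8% and 12.9% of the day 4 sums in FL, 1D5 and 1KI9. Scaling to equal sums was not run, so its effect on the day 4 differences is unknown. The number of reads behind a value is unknown. Log correlations between libraries of one group were 0.994 to 0.998. FL expansion replicate 1 stood apart from the other FL expansion libraries, with globin transcripts at 10.6% of its sum against 5.55% and 5.73% and a summed member level of 2414 against 2987 and 2806. The level of GATA1 averaged 154 ± 12.6 in FL, 651 ± 25.7 in 1D5 and 635 ± 24.7 in 1KI9 under expansion, and 231 ± 8.75, 1059 ± 37.5 and 925 ± 21.1 at day 4 (SD, n = 3). A gene total does not separate the isoforms and checks no label. All 15 erythroid markers had a group mean of at least 1 in every group, and lymphocyte markers summed to at most 0.78 in any library. The monocyte and neutrophil markers, of which 6 of 11 were in the table, summed to 7.51 to 36.8 in FL, 32.8 to 46.8 in 1D5 and 180 to 231 in 1KI9 expansion libraries, and to 43.4 to 46.9 in FL and 329 to 419 in GATA1s libraries at day 4, with CSF1R at 0 in every FL library. The mast cell and basophil markers (5 of 6 in the table) summed to 3.13 to 4.37 in FL, 5.25 to 10.4 in 1D5 and 70.7 to 95.3 in 1KI9 under expansion, and to 48.99 to 53.5, 165 to 172 and 289 to 310 at day 4, with MS4A2 at 0 in all groups at day 4. The erythroid markers summed to 43329 to 82162, 36042 to 54081 and 31909 to 35347 under expansion, and to 266927 to 283679, 126325 to 144381 and 71766 to 81281 at day 4. Megakaryocyte markers (4 of 7) summed to 0.31 to 0.56 in FL, 1.54 to 3.05 in 1D5 and 8.4 to 11.45 in 1KI9 under expansion. At day 4 they summed to 4.02 to 4.46, 19.98 to 23.3 and 16.19 to 17.74. Stromal markers (3 of 6) were at or below 3.56 in every library. The part of these marker differences in the results below was not tested. In bulk samples, fewer dividing cells and less transcript per cell cannot be told apart.

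Among the 49 members, mean levels in FL expansion libraries ran from 208 for CCNB1 to 6.81 for CDC25C, with SMC4 (145), BUB3 (144) and UBE2S (134) next to the top and CENPE (14.4) next to the bottom. The median member averaged 42.1 in FL, 35.9 in 1D5 and 31.9 in 1KI9 under expansion, and 12.8, 9.46 and 8.43 at day 4, taken as the median in each library.

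The largest difference of any member belonged to UBE2C, the chain-starting enzyme of the anaphase-promoting complex (ENSG00000175063, chr20:45812576-45816957, plus strand). Under expansion it measured 33.4, 43.2 and 44.5 in FL, 0.72, 0.55 and 0.26 in 1D5, and 0.93, 0.41 and 0.79 in 1KI9. At day 4 it measured 15.2, 16.98 and 15.5 in FL, 0.66, 0.68 and 0.84 in 1D5, and 1.07, 0.69 and 0.97 in 1KI9. Every GATA1s library lay at or below 1.07, and the lowest FL library was at 15.2. On the log2(value + 1) scale, which understates changes of low values, the mean of the clones minus FL was -4.69 ± 0.12 (SE) under expansion and -3.22 ± 0.12 at day 4 (limma, Benjamini-Hochberg adjusted p = 6.9e-16 and 6.84e-14). Of its neighbours on chromosome 20, DNTTIP1, which ends just upstream, averaged 23.4, 25.5 and 30.97 in FL, 1D5 and 1KI9 under expansion, and ACOT8, further downstream, 9.85, 13.6 and 18.4. Neither mean was lower in the clones under either condition. Other neighbours differed more: at day 4 SNX21, also downstream, averaged 0.54, 10.4 and 8.3 in FL, 1D5 and 1KI9, and PIGT, further upstream, 70.5, 212 and 228. TNNC2, the next gene downstream of UBE2C, averaged at most 0.55 in any group. GENCODE 29 also annotates processed pseudogenes of UBE2C, so how reads were shared among the copies is uncertain. Its partner enzyme UBE2S, which extends the chains, was not called in both clones under either condition. It averaged 134 ± 41.4, 116 ± 7.05 and 88.5 ± 8.37 in FL, 1D5 and 1KI9 expansion libraries, and 38.55 ± 1.52, 38.5 ± 2.76 and 32 ± 4.99 at day 4 (SD, n = 3).

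**Figure D1:**
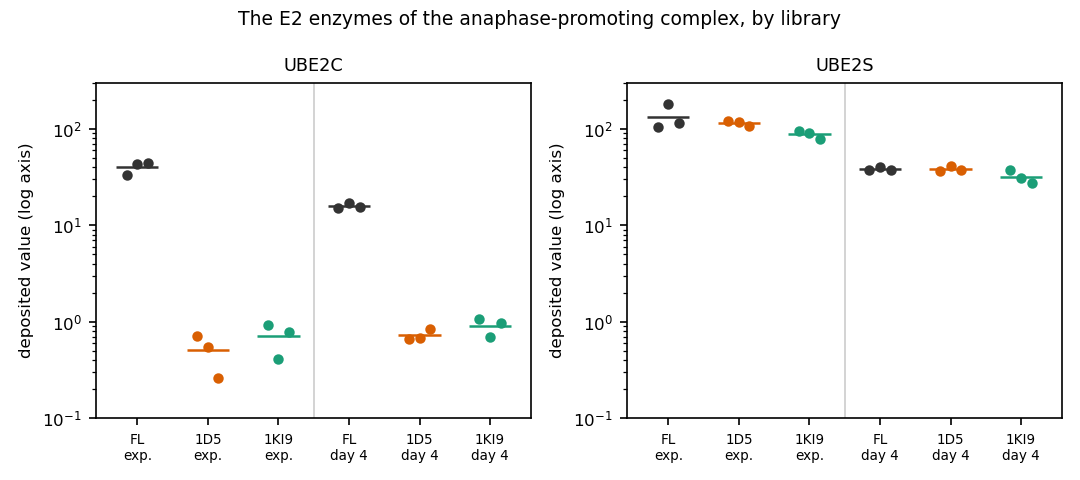
Deposited values of UBE2C and UBE2S in each of the 18 libraries on a log axis, by clone and condition (points: libraries; bars: group means, n = 3). UBE2C is at 15.2 or more in every FL library and at 1.07 or less in every GATA1s library, while the UBE2S group means lie between 88.5 and 134 under expansion and between 32.0 and 38.55 at day 4.

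Under expansion, the question is how the GATA1s clones differ from FL while the cells grow. Besides UBE2C, whose difference was far larger, the called differences lay within 0.50 of 0 on the log2 scale, and BUB1 and SPC25 were the members that rose. A gene was counted as lower or higher when each clone passed limma at an adjusted p under 0.05 with the same sign. On this rule 12 of 49 members fell and 2 rose. Of all genes tested, 8.98% fell and 17.5% rose. The log2 difference was below 0 in 46 of 49 members, with a median of -0.28 against 0.06 over all genes. All 6 GATA1s libraries lay below all 3 FL libraries for 17 members (10.1% of all genes), and above them for BUB1 alone (18.9% of all genes).

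CDK1, the kinase that starts mitosis, measured 69.65, 78.9 and 83.3 in FL, 66.04, 65.2 and 64.4 in 1D5, and 49.5, 56.8 and 55.3 in 1KI9 under expansion. The groups did not overlap, and the difference was -0.37 ± 0.06 (SE; limma adjusted p = 3.37e-05). Its partner cyclin CCNA2 measured 82.6, 107 and 95.7 in FL, 80.7, 80.2 and 74.05 in 1D5, and 61.3, 68.4 and 72.75 in 1KI9, a difference of -0.38 ± 0.07 (adjusted p = 0.000137). The highest 1D5 library was just under the lowest FL library. Among the other 8 kinases, cyclins and phosphatases none was called in both clones. CCNB1 differed by -0.09 ± 0.07, AURKB by -0.34 ± 0.08 and PLK1 by -0.21 ± 0.08.

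The checkpoint kinases encoded by BUB1 and BUB1B differed in direction. BUB1, which recruits checkpoint proteins to kinetochores, measured 47.7, 52.9 and 53.9 in FL, 67.55, 68.6 and 64.96 in 1D5, and 69.1, 76.7 and 79.1 in 1KI9. It rose by 0.45 ± 0.06 (limma adjusted p = 1.24e-05). Each GATA1s library exceeded each FL library. BUB1B, the gene of BUBR1, measured 31.1, 46.1 and 37.4 in FL, 27.5, 31.6 and 25.4 in 1D5, and 23.45, 26.8 and 24.6 in 1KI9. It differed by -0.50 ± 0.11 (limma adjusted p = 0.00139). One 1D5 library overlapped the lowest FL library. BUB3 and MAD2L1 were not called in both clones.

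SPC25, a subunit of the NDC80 kinetochore complex, was the other member called higher. It measured 10.4, 18.8 and 14.6 in FL, 21.4, 22.3 and 15.7 in 1D5, and 17.6, 19.8 and 21.99 in 1KI9, with overlapping groups and a difference of 0.44 ± 0.14 (limma adjusted p = 0.0133). Without FL expansion replicate 1 the difference was 0.24 and SPC25 was not called (adjusted p = 0.147). Its complex partners NDC80, NUF2 and SPC24 were not called in both clones, with differences of -0.19 ± 0.07, -0.20 ± 0.10 and -0.16 ± 0.07.

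CDCA8 (borealin) of the chromosomal passenger complex, which corrects faulty attachments, measured 33.6, 37.4 and 36.2 in FL, 29.2, 30.35 and 25.6 in 1D5, and 22.1, 24.3 and 25.6 in 1KI9. Every GATA1s library was below every FL library, while 1D5 and 1KI9 overlapped, and the difference was -0.44 ± 0.06 (limma adjusted p = 1.44e-05). ESPL1 (separase), the protease that cuts cohesin at anaphase, measured 15.04, 16.9 and 17.5 in FL, 12.7, 14.03 and 10.6 in 1D5, and 10.4, 12.5 and 10 in 1KI9, a difference of -0.47 ± 0.10 (limma adjusted p = 0.000526). KIF2C (MCAK), a microtubule-depolymerising kinesin, measured 40.3, 45.5 and 45.4 in FL, 36.1, 36.85 and 32.6 in 1D5, and 28.9, 32.7 and 33.8 in 1KI9, a difference of -0.38 ± 0.06 (adjusted p = 6.18e-05). MKI67, the proliferation antigen that coats mitotic chromosomes, measured 33.96, 39.8 and 35.8 in FL, 30.4, 30.45 and 24.8 in 1D5, and 21.6, 28.5 and 29.2 in 1KI9, a difference of -0.40 ± 0.10 (limma adjusted p = 0.00195). For all of ESPL1, KIF2C and MKI67 every GATA1s library was below every FL library. The chromokinesin KIF4A (-0.36 ± 0.07), the spindle assembly factor TPX2 (-0.35 ± 0.07), the condensin ATPase SMC4 (-0.33 ± 0.08) and the passenger scaffold INCENP (-0.28 ± 0.08) were the other members that fell. No gene of the central spindle and cytokinesis group (5 tested) was called.

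The count under expansion depended on single libraries. It was 22 lower and 1 higher without FL expansion replicate 1, and 6, 7 and 5 lower without FL replicate 2, FL replicate 3 or 1D5 replicate 3. With median-of-ratios scaling, which divides each library by the median ratio of its genes to their means, it was 23 lower and 1 higher. Of all 11038 genes tested with that scaling, 1712 fell and 1627 rose in both clones. The share of called genes that rose, over the whole table, went from 66.0% to 48.7%.

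**Figure D2:**
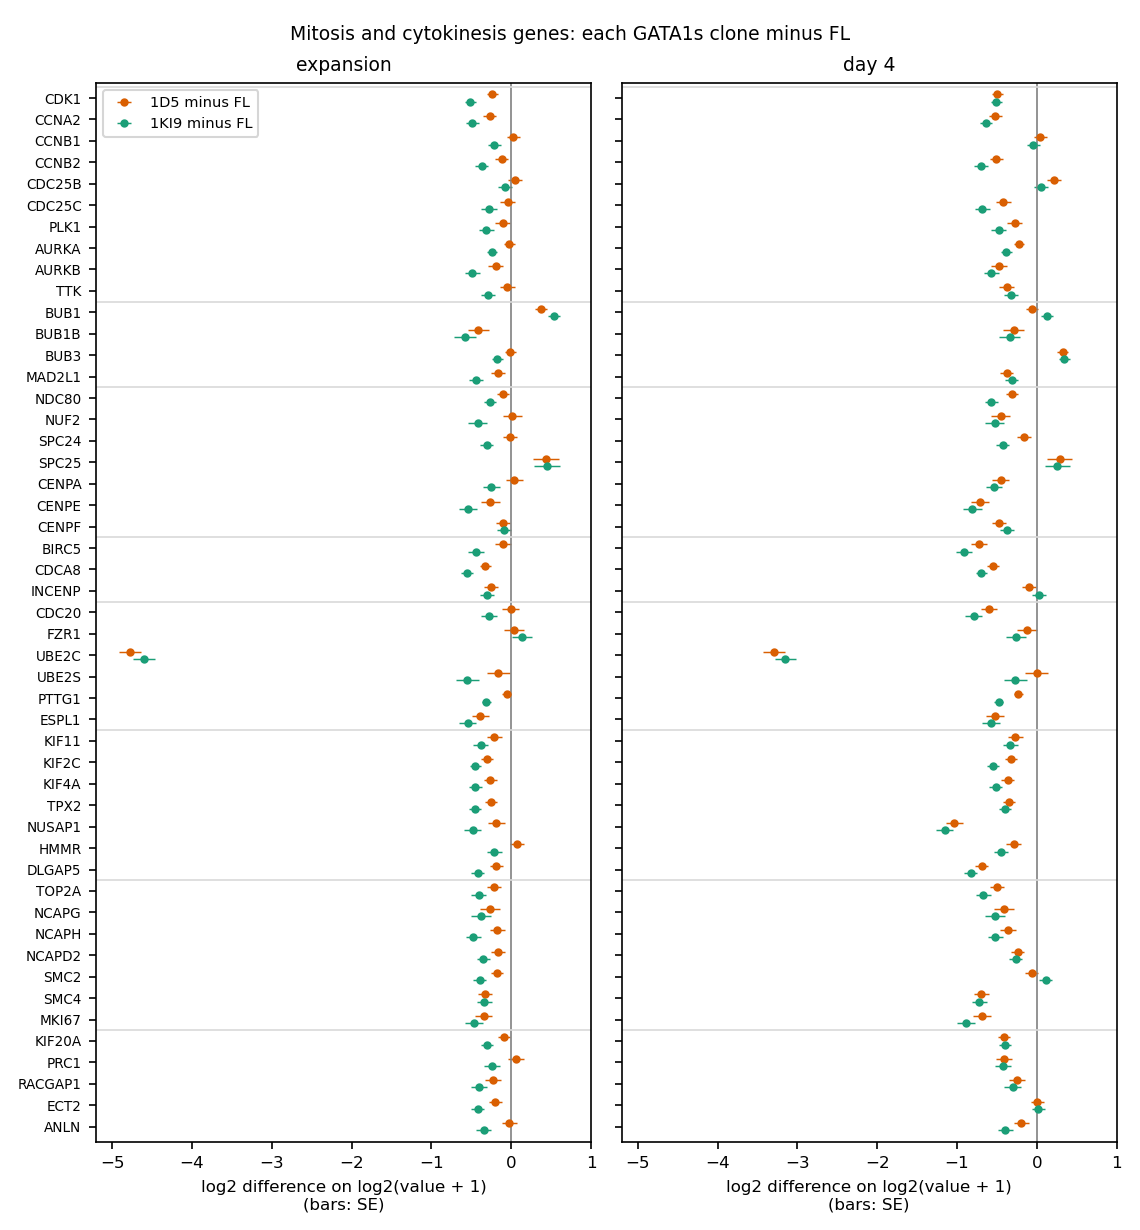
Difference of each GATA1s clone from FL for the 49 members, on the log2(value + 1) scale, under expansion (left) and at day 4 (right); points are limma estimates, bars their SE, and grey lines separate functional groups. UBE2C lies far to the left in both panels, and at day 4 NUSAP1 stands at about -1.10 with most other members left of 0.

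At day 4, the comparison asks how the clones differ once differentiation is under way. As deposited, lower levels in both GATA1s clones extended to most members. Of 49, 36 fell (background 14.3%) and BUB3 alone rose (background 51.2%). The median difference was -0.42 against 0.29 over all genes. All 6 GATA1s libraries lay below all 3 FL libraries for 37 members (16% of all genes), and above them for BUB3 alone (54% of all genes). Of the 12 that fell under expansion, 10 also fell at day 4, and 26 fell at day 4 only on this rule. By role, the members that fell were 8 of 10 kinases, cyclins and phosphatases, 7 of 7 spindle motors and microtubule regulators, 6 of 7 condensation genes, 5 of 7 kinetochore genes, 4 of 6 anaphase-promoting complex genes, 3 of 5 cytokinesis genes, 2 of 3 passenger genes and 1 of 4 checkpoint genes.

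NUSAP1, which bundles spindle microtubules around chromosomes, had the largest difference after UBE2C. It measured 47.7, 48.8 and 45.8 in FL, 21.7, 23.2 and 23.1 in 1D5, and 21.9, 19.5 and 20.8 in 1KI9 at day 4. Its GATA1s libraries fell within a narrow band, and the difference was -1.10 ± 0.09 (limma adjusted p = 4.58e-09). DLGAP5 (HURP), another spindle microtubule protein, measured 15.6, 15.3 and 17.4 in FL, 10.1, 8.68 and 10 in 1D5, and 8.9, 8.35 and 8.56 in 1KI9, a difference of -0.76 ± 0.07 (limma adjusted p = 1.6e-08).

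In the passenger complex, BIRC5 (survivin) measured 16.6, 17.2 and 18.2 in FL, 10.01, 9.85 and 10.3 in 1D5, and 9.01, 8.58 and 8.75 in 1KI9. It fell by 0.82 ± 0.09 (limma adjusted p = 1.06e-07). CDCA8 measured 11.3, 11.8 and 11.8 in FL, 7.33, 7.82 and 7.75 in 1D5, and 6.49, 7.16 and 6.82 in 1KI9. It fell by 0.62 ± 0.06 (limma adjusted p = 6.99e-08). The groups did not overlap for these genes, whereas INCENP, the scaffold of the same complex, differed by -0.04 ± 0.08 (limma adjusted p = 0.676) and was not called. AURKB, its kinase, was lower in both clones (-0.52 ± 0.08).

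CDC20, the activator that the checkpoint restrains, measured 28.6, 29.3 and 30.85 in FL, 18.45, 21.7 and 17.55 in 1D5, and 17.5, 16.7 and 15.8 in 1KI9, a difference of -0.70 ± 0.09 (limma adjusted p = 1.15e-06). Every GATA1s value was below every FL value. FZR1, the activator used after anaphase, measured 26.5, 26.85 and 23.99 in FL, 22.6, 24.55 and 23.7 in 1D5, and 21.5, 22.02 and 20.5 in 1KI9, with a difference of -0.19 ± 0.11 that was not called (limma adjusted p = 0.119). Under median-of-ratios scaling FZR1 was called lower, at -0.54.

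The B-type cyclins parted at day 4. CCNB2 measured 26.2, 27.2 and 28.55 in FL, 18.5, 19.9 and 18.2 in 1D5, and 16.1, 16.3 and 16.9 in 1KI9. It fell by 0.60 ± 0.07 (limma adjusted p = 5.18e-07). CCNB1 measured 51.1, 50.9 and 54.5 in FL, 56.65, 52.1 and 52.5 in 1D5, and 49.7, 51.1 and 50.9 in 1KI9. Its groups overlapped, and its difference was 0.00 ± 0.07 as deposited (limma adjusted p = 0.997) but -0.36, and called, with median-of-ratios scaling.

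CENPE, the kinetochore motor that carries chromosomes to the spindle equator, measured 4.8, 4.65 and 5.37 in FL, 3.34, 1.99 and 2.66 in 1D5, and 2.58, 2.43 and 2.18 in 1KI9, a difference of -0.76 ± 0.10 (limma adjusted p = 2.29e-06). The condensin ATPase SMC4 measured 51.2, 52.9 and 61.7 in FL, 32.6, 30.1 and 38.8 in 1D5, and 32.7, 29.5 and 37.4 in 1KI9, a difference of -0.71 ± 0.08 (limma adjusted p = 2.39e-07). Its partner ATPase SMC2 was not called, with FL at 6.59 to 7.56 and the GATA1s libraries at 6.09 to 8.32. MKI67 measured 11.1, 10.8 and 10.1 in FL, 6.58, 5.29 and 7 in 1D5, and 5.5, 5.15 and 5.2 in 1KI9. It fell by 0.79 ± 0.10 (limma adjusted p = 7.96e-07). For CENPE, SMC4 and MKI67 every GATA1s library was below every FL library, while 1D5 and 1KI9 overlapped.

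Several further members fell at day 4, some by smaller amounts than those above. Among the kinases, cyclins and phosphatases, CCNA2 (-0.58 ± 0.07), the phosphatase CDC25C (-0.55 ± 0.09) and CDK1 (-0.50 ± 0.06) fell, whereas CDC25B, another phosphatase that activates CDK1, did not pass (0.13 ± 0.08, limma adjusted p = 0.124). CCNA2 measured 17.7 to 18 in FL and 10.9 to 12.2 in the GATA1s libraries, and CDK1 measured 26.4 to 29.2 and 18.7 to 20.1. For both genes every GATA1s library was below every FL library. TOP2A, the topoisomerase that untangles chromosomes, went from 21.9 to 25.3 in FL to 14.1 to 17.65 in the GATA1s libraries (-0.59 ± 0.08). ESPL1 (-0.55 ± 0.10) and its inhibitor securin, PTTG1 (-0.36 ± 0.05), both fell. The smallest difference called was that of the condensin subunit NCAPD2 (-0.25 ± 0.07). Among genes of cytokinesis, the central spindle bundler PRC1 fell (-0.42 ± 0.09), and ECT2 and ANLN were not called (0.01 ± 0.07 and -0.30 ± 0.08).

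BUB3, a checkpoint subunit also present outside mitosis, measured 55.7, 60.4 and 57.8 in FL, 74.8, 70.4 and 73.1 in 1D5, and 73.9, 74.9 and 72.8 in 1KI9. As deposited it rose by 0.33 ± 0.06 (limma adjusted p = 4.79e-05), but with median-of-ratios scaling the difference was -0.02 and was not called. BUB1, higher in the clones under expansion, measured 9.97 to 12.3 in FL and 9.86 to 12.3 in the GATA1s libraries at day 4, a difference of 0.04 ± 0.06 (limma adjusted p = 0.609). Under median-of-ratios scaling BUB1 was lower, at -0.30, and 46 members fell. Of all 11091 genes tested with that scaling, 3469 fell and 2930 rose in both clones. That scaling moved the median of all genes from 0.29 to -0.02, and the share of called genes that rose from 78.2% to 45.8%. The members' median moved with it, from -0.42 to -0.75.

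**Figure D3:**
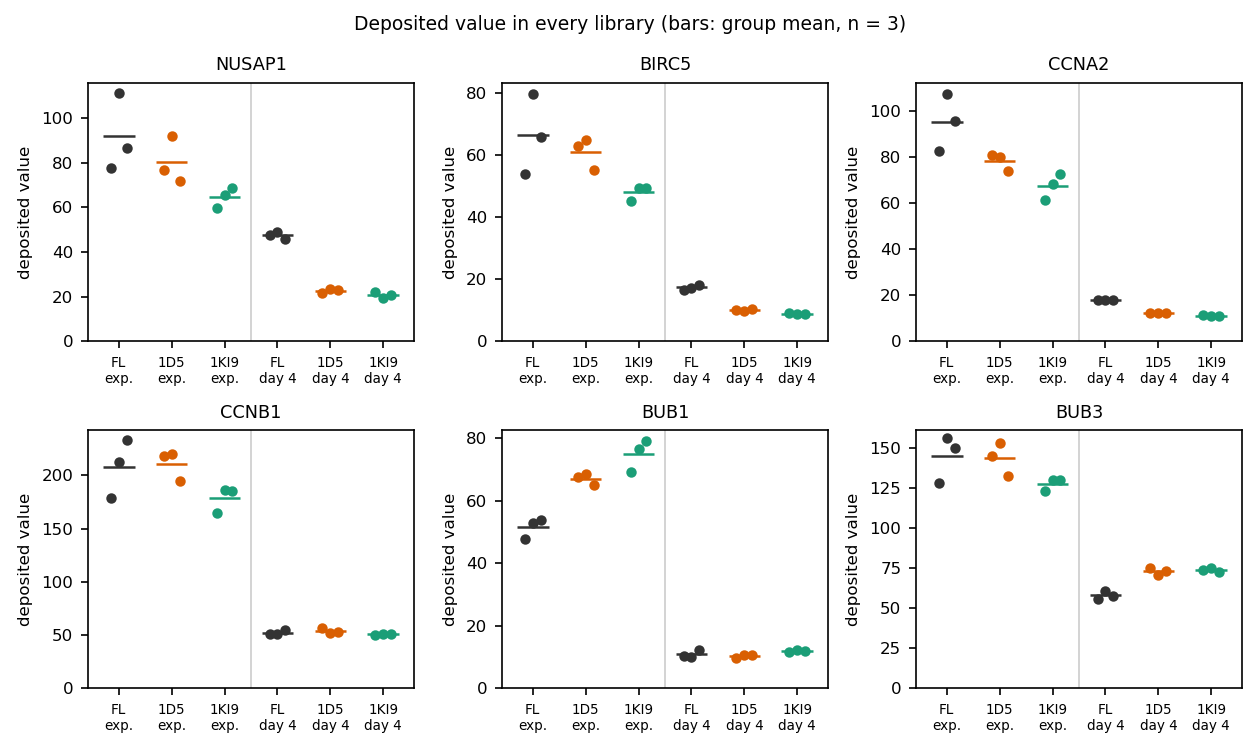
Deposited values of NUSAP1, BIRC5, CCNA2, CCNB1, BUB1 and BUB3 in each library (points), with group means (bars, n = 3), by clone and condition; each panel starts at 0. At day 4 NUSAP1 lies at 45.8 to 48.8 in FL and 19.5 to 23.2 in the GATA1s clones, while CCNB1 overlaps among all clones.

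The GATA1s clones were also compared with each other. Under expansion 1KI9 had lower levels than 1D5 of 26 of 49 members (background 7.16%) and higher levels of none (background 33.4%). The median difference was -0.22 against 0.11 over all genes. All 3 1KI9 libraries lay below all 3 1D5 libraries for 24 members (9.75% of all genes) and above them for 1 (39.3%). The largest difference was in NUF2, a kinetochore subunit, at 19.7, 25.8 and 19.3 in 1D5 and 13.7, 16.7 and 16.8 in 1KI9 (-0.43 ± 0.12, limma adjusted p = 0.00752). UBE2S (-0.39 ± 0.15), BIRC5 (-0.34 ± 0.10), the cleavage furrow protein ANLN (-0.32 ± 0.09) and the condensin subunit NCAPH (-0.30 ± 0.10) followed. Against FL under expansion, each clone taken singly gave 12 lower (background 12.4%) and 2 higher (background 18.7%) members in 1D5, and 42 lower (background 18.5%) and 2 higher (background 41%) in 1KI9. At day 4 it gave 36 lower (background 16.3%) and 2 higher (background 54.8%) in 1D5, and 39 lower (background 17.5%) and 1 higher (background 58.9%) in 1KI9. At day 4, 4 members were lower in 1KI9 than in 1D5 (background 6.69%), namely SPC24 (-0.27 ± 0.08), NDC80 (-0.26 ± 0.08), the separase inhibitor PTTG1 (-0.25 ± 0.06) and KIF2C (-0.23 ± 0.07), and none was higher (background 12.5%). Non-overlap was found for 20 members below (15.8% of all genes) and 2 above (27.6%). The expansion count of 26 fell to 11, 4 and 7 without 1D5 replicate 1, 1D5 replicate 2 or 1KI9 replicate 1, and the day 4 count ranged from 1 to 5. With median-of-ratios scaling 43 and 16 members were lower. Of all genes tested with that scaling, 2848 of 11038 were lower under expansion and 1131 of 11091 at day 4. The share of called genes that rose went from 82.4% to 42.7% and from 65.1% to 50.4%.

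From expansion to day 4 nearly all members fell in each clone. In FL 48 of 49 were lower (background 57.2%) and FZR1 was higher (background 26.5%). In 1D5 47 were lower (background 47%), as in 1KI9 (background 52.2%), and none was called higher (backgrounds 31.9% and 22.2%). The median changes were -1.56 in FL, -1.82 in 1D5 and -1.69 in 1KI9, against -0.38, -0.15 and -0.25 over all genes. Every day 4 library lay below every expansion library for 48 members in FL (57.7% of all genes), for 47 in 1D5 (47.2%) and for 47 in 1KI9 (54.5%). They were above them for no member in any clone (27.2%, 32.1% and 24.2%). The summed member level was 2414 to 2987 in FL, 2299 to 2610 in 1D5 and 1981 to 2218 in 1KI9 under expansion. At day 4 it was 868 to 907, 690 to 705 and 646 to 659. The expansion and day 4 columns are on different scales, so medium, time and scale cannot be told apart in these changes.

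AURKB, the kinase of the passenger complex, had the largest fall of the members in each clone: -2.51 ± 0.09 in FL, -2.79 ± 0.09 in 1D5 and -2.59 ± 0.09 in 1KI9 (limma adjusted p = 3.96e-14, 2.89e-14 and 1.7e-13). In FL it went from 72.02, 94.7 and 81.6 to 13.3, 13.4 and 14.3. The changes of CCNA2 were -2.35 ± 0.08, -2.59 ± 0.08 and -2.50 ± 0.08, and those of PLK1, the Polo-like kinase, -2.35 ± 0.09, -2.52 ± 0.09 and -2.51 ± 0.09 in the same order. The checkpoint genes MAD2L1 in FL (-2.32 ± 0.08) and 1D5 (-2.53 ± 0.08) and BUB1 in 1D5 (-2.58 ± 0.07) and 1KI9 (-2.55 ± 0.07) were also among the 5 largest. So were NCAPH in FL (-2.19 ± 0.10) and BIRC5 in 1KI9 (-2.32 ± 0.10). The smallest falls in FL were those of the phosphatase CDC25C (-0.75 ± 0.10) and NUSAP1 (-0.92 ± 0.11).

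FZR1 and, in the GATA1s clones, UBE2C were the exceptions. The change of FZR1 was 0.28 ± 0.13 in FL, 0.13 ± 0.13 in 1D5 and -0.11 ± 0.13 in 1KI9 (limma adjusted p = 0.0445, 0.339 and 0.418). Without FL expansion replicate 1, without the filter on low values, or with only the FL libraries in the fit, FZR1 was not called in FL, whereas median-of-ratios scaling gave 0.74 there. UBE2C fell in FL (-1.28 ± 0.14, adjusted p = 5.91e-08), and its change was 0.20 ± 0.14 in 1D5 and 0.17 ± 0.14 in 1KI9, where it was at or below 1.07 in both conditions (limma adjusted p = 0.175 and 0.272). Under both rescalings these small UBE2C changes were called higher, at 0.27 to 0.32.

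**Figure D4:**
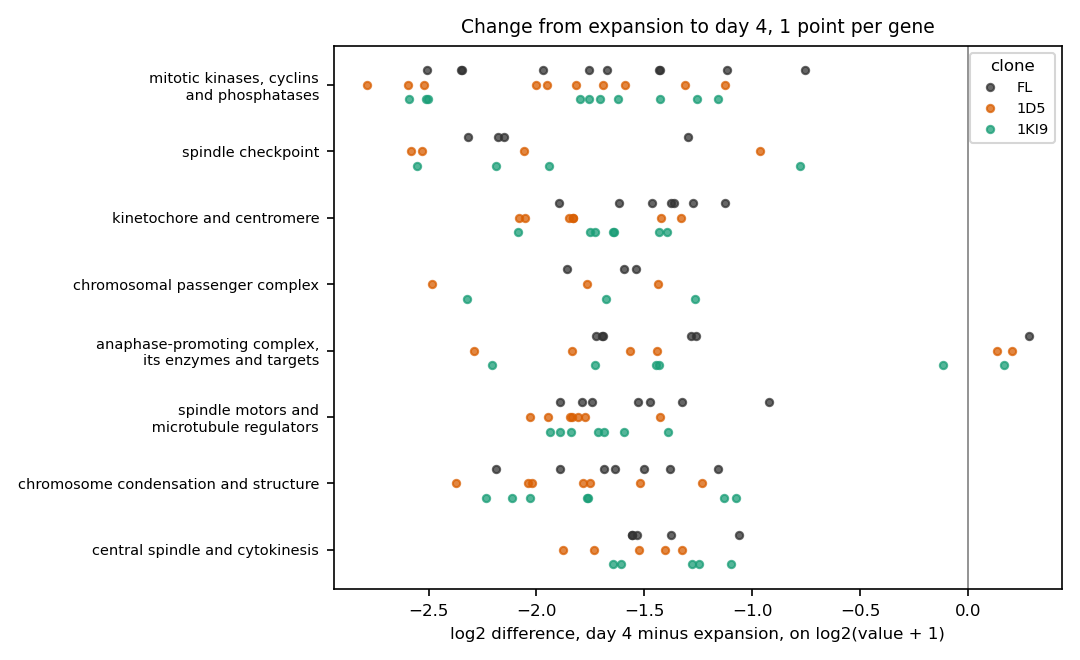
Change from expansion to day 4 on the log2(value + 1) scale for each of the 49 members, by functional group (rows) and clone (colour). All points lie left of 0 except FZR1 in FL and 1D5 and UBE2C in 1D5 and 1KI9, and FZR1 in 1KI9 lies just left of it at -0.11.

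Whether the genotype difference itself changed between conditions was tested as an interaction. It was more negative at day 4 for 17 of 49 members (background 19.7%) and more positive for 4 (background 45.4%), with a median of -0.17 against 0.21 over all genes. NUSAP1 had the most negative term (-0.76 ± 0.13, limma adjusted p = 6e-05), followed by CDC20 (-0.55 ± 0.13), BIRC5 (-0.54 ± 0.12) and DLGAP5 (-0.46 ± 0.10). BUB1 (-0.42 ± 0.09) was called higher in the clones under expansion and was not called at day 4. The positive terms were UBE2C (1.47 ± 0.17), BUB3 (0.43 ± 0.08), the cytokinesis exchange factor ECT2 (0.32 ± 0.10) and SMC2 (0.31 ± 0.10). For UBE2C, FL fell while the clone values were at or below 1.07 in both conditions. With median-of-ratios scaling the terms of ECT2 and SMC2 were 0.12 and 0.11 and were not called. There were 9 negative and 7 positive terms when FL expansion replicate 1 was left out. After that rescaling there were 36 and 2, and the share of called genes with a positive term went from 69.7% to 50.3%. Over all 11013 genes tested with it, 3378 terms were called negative and 3416 positive.

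Ratios taken within a library do not depend on a scaling that multiplies all genes of a library by 1 factor. Whether the undescribed day 4 scaling was of this kind is unknown. The ratios were chosen after the values were seen and are given without a test. The summed level of the 49 members divided by that of 30 S phase genes was 1.00 to 1.04 in FL, 0.986 to 1.06 in 1D5 and 1.04 to 1.05 in 1KI9 under expansion. At day 4 it was 1.12 to 1.18 in FL, 0.890 to 0.936 in 1D5 and 0.846 to 0.862 in 1KI9. Under expansion the 1D5 range covered those of FL and 1KI9, and the day 4 ranges did not overlap. The S phase sum itself was 768 to 779 in FL, 753 to 776 in 1D5 and 759 to 764 in 1KI9 at day 4. Unlike the ratios, this sum depends on any such factor. With median-of-ratios scaling 15 of the 30 S phase genes were called lower in both clones at day 4 and 0 higher. Of all 11091 genes, 3469 were lower and 2930 higher with that scaling. CDC20 relative to FZR1 was 4.01 to 5.31 in FL, 4.37 to 4.74 in 1D5 and 3.37 to 3.64 in 1KI9 under expansion, and 1.08 to 1.29, 0.741 to 0.883 and 0.760 to 0.812 at day 4. CCNB1 relative to CCNA2 was 1.97 to 2.43 in FL and 2.55 to 2.74 in the GATA1s libraries under expansion, and 2.83 to 3.08 and 4.30 to 4.67 at day 4. The GATA1s libraries were thus above FL for this ratio in both conditions.

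**Figure D5:**
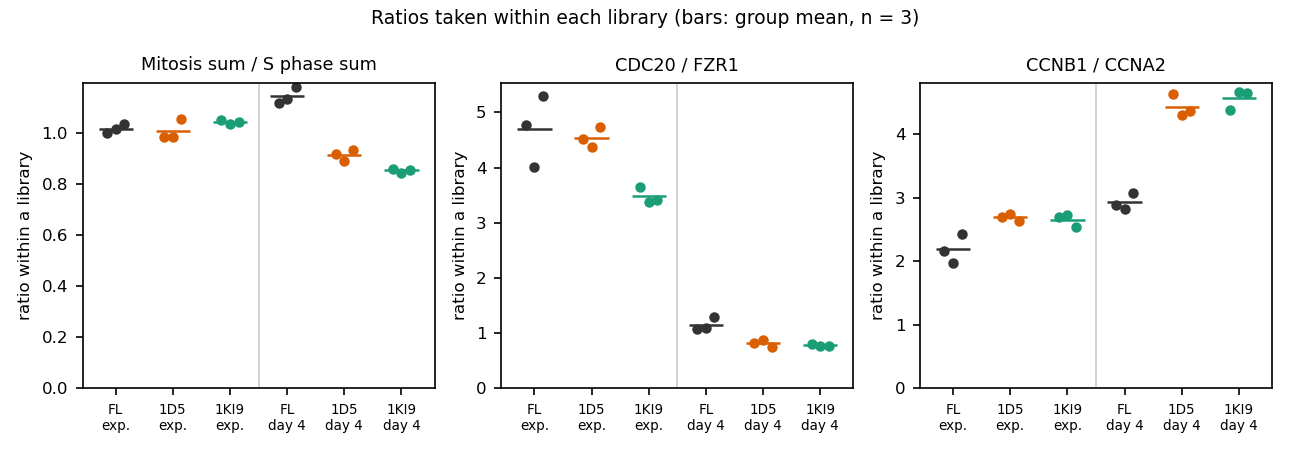
Ratios within each library (points; bars: group means, n = 3): summed mitosis members over summed S phase genes, CDC20 over FZR1 and CCNB1 over CCNA2, by clone and condition; axes start at 0. The mitosis to S phase ratio is 1.12 or more in FL and 0.936 or less in the GATA1s clones at day 4, whereas under expansion all libraries lie between 0.986 and 1.06.

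The rest of the mitotic apparatus was followed through 120 other genes in 7 lists, drawn up with earlier results of these data known. In both GATA1s clones under expansion 21 fell and 5 rose (17.5% and 4.17%, against 8.98% and 17.5% of all genes). At day 4, 34 fell and 28 rose (28.3% and 23.3%, against 14.3% and 51.2% of all genes). With median-of-ratios scaling 74 fell and 8 rose, where 3469 of all 11091 genes fell and 2930 rose. Among 26 other spindle and cytokinesis genes 14 fell and 1 rose at day 4. GTSE1, a microtubule-associated spindle regulator, was among those that fell (-0.71 ± 0.10), and CKAP2, a microtubule stabiliser, was the gene that rose (1.53 ± 0.06). Of 29 other kinetochore genes 7 fell and 4 rose (22 and 0 with median-of-ratios scaling). The fallers included CENPT, which links centromeric chromatin to the NDC80 complex (-1.64 ± 0.08), and HJURP, the loading chaperone of CENPA (-1.03 ± 0.06). From expansion to day 4 CENPT rose in FL by 2.45 ± 0.10. Its interaction term was -1.56 ± 0.12, so the mean change of the clones was also a rise, but a smaller one. In the list of other checkpoint genes and kinases (21 genes, 6 higher and 3 lower, or 2 and 7 with that scaling) the largest differences were those of MAD1L1, the kinetochore anchor of MAD2 (1.27 ± 0.10), and CKS2, a CDK1-binding protein (1.03 ± 0.08). Of 15 core subunits and inhibitor genes of the anaphase-promoting complex, 9 rose and 2 fell as deposited, with ANAPC7 at 0.66 ± 0.06 and CDC27 at -0.65 ± 0.08, but 1 rose and 7 fell with median-of-ratios scaling. As deposited, 51.2% of all genes rose and 14.3% fell, so the counts of these 15 genes were near the background.

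Against the same all-gene shares at day 4 (51.2% higher and 14.3% lower), of 12 cohesin genes 3 rose and 5 fell (1 and 8 with median-of-ratios scaling), with the cohesin regulator PDS5A at 0.66 ± 0.08 and the acetyltransferase ESCO2 at -0.53 ± 0.14. None of 3 condensin II genes was called at day 4, where the median-of-ratios scaling called 2 lower. Among 14 regulators of mitotic genes 5 rose and 3 fell (3 and 7 with that scaling), with E2F5 at 1.04 ± 0.06 and LIN52, a MuvB subunit, at 0.72 ± 0.07. In the list of 30 S phase genes 6 rose and 5 fell (51.2% and 14.3% of all genes), with E2F1 at 0.52 ± 0.08 and CCNE1, a cyclin of the G1 to S transition, at -0.66 ± 0.10. With median-of-ratios scaling none of these 30 rose and 15 fell, and E2F1 was not called. The background for the rescaled counts of each list here is 3469 lower and 2930 higher of all 11091 genes. FOXM1, an activator of mitotic genes, fell from expansion to day 4 in each clone (-1.83 ± 0.11 in FL, -2.04 ± 0.11 in 1D5 and -1.92 ± 0.11 in 1KI9).

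The median difference of the clones from FL at day 4 was -0.43 for the 22 members with a CHR and a CCAAT box, -0.38 for the 8 with a CHR only, -0.38 for the 8 with a CCAAT box only and -0.49 for the 4 with neither (CDC25B, CDC25C, CENPE and KIF2C). The ranges overlapped: -1.10 to 0.27, -0.71 to 0.03, -0.58 to 0.00 and -0.76 to 0.13. The change from expansion to day 4 in FL had medians of -1.53, -1.59, -1.85 and -1.57 in the same order. These values describe the 42 members with a window and were not tested. For the 9 members with more than 1 window only the first listed was used. Other spellings of the CHR and other windows of a gene were not searched. A gene counted here without a CHR may therefore still carry one, and the 4 classes may misplace genes.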

How the data were processed

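Messenger RNA from 18 libraries (6 groups of 3, grouped by the labelled clone and condition) was sequenced by stranded mRNA sequencing. Per the submitters' processing notes, Trim Galore 0.60, STAR 2.7 and RSEM 1.31 were used with hg38 (GRCh38.p12). The authors deposited 1 table. Its expansion columns hold TPM. Its day 4 columns were planned as TPM too, but their sums differ between libraries, so they were treated as a TPM-like signal that the authors scaled in a way not given in the sources used here, and the same test was kept. Depth is unknown, so no counting interval was given.

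Values were analysed as log2(value + 1) with limma 3.58.1 (R 4.3.3, trend) over 6 group means and all 18 libraries, for the 11110 genes that reached 1 in 3 or more libraries. Genes listed at 0 throughout a condition were left out of comparisons that use it. All 49 members entered every comparison. P-values were adjusted by Benjamini-Hochberg over all genes tested, with a threshold of 0.05. A call in both clones needed 1D5 and 1KI9 each to differ from FL, in one direction, and the size given is the mean of the clones minus FL. The script was tested on simulated data. Background percentages are shares of all genes tested. Named genes were the 10 largest called differences of the clones from FL, the 5 largest in other comparisons and the 2 largest of each other list. Other members are named as examples. Gene positions come from GENCODE 29, matched without version. Motifs were searched on both strands, in 1 RefSeq window a gene. The alternatives were 2 rescalings, another pseudocount, no filter, fewer libraries in the fit, the replicate number as a block, and leaving out each library. The members and lists were chosen with earlier results of these data known.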

Additional observations from a re-analysis of the deposited data

Results flagged for a closer look

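The difference between the GATA1s clones and FL was not the same under expansion and at day 4 for 21 of the 49 members, by the interaction term of limma. The term was negative for 17 and positive for 4. Over all genes tested 19.7% of terms were called negative and 45.4% positive. Among the 5 largest, UBE2C had a term of 1.47 on the log2(value + 1) scale, with clone values of 0.26 to 1.07 in both conditions. NUSAP1 (-0.76), CDC20 (-0.55), BIRC5 (-0.54) and DLGAP5 (-0.46) had lower levels in the clones at day 4 than their expansion differences would give. The expansion and day 4 columns are on different scales, and the count of negative terms was 9 without FL expansion replicate 1.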

How the results depend on the processing

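None of the members named by the size rule changed sign under an alternative. Outside that rule, BUB3 at day 4 went from 0.33 to -0.02, and BUB1 at day 4 from 0.04, not called, to -0.30, called lower, with median-of-ratios scaling. With median-of-ratios scaling, the members higher and lower in both clones numbered 1 and 23 under expansion (1627 and 1712 of all 11038 genes). At day 4, 0 were higher (2930 of 11091 genes). For 1KI9 against 1D5, 43 were lower under expansion (2848 of 11038) and 16 at day 4 (1131 of 11091). From expansion to day 4, 2 were higher in 1D5 (4387 of 11013) and 1 in 1KI9 (4144 of 11013). The interaction gave 2 positive and 36 negative terms (3416 and 3378 of 11013). After scaling to a total without globin and mitochondrial genes, 26 interaction terms were negative (2392 of 11025 over all genes). With the same scaling 2 and 1 members were higher at day 4 than in expansion in 1D5 and 1KI9 (4998 and 4494 of 11025). With a pseudocount of 0.1, or without the filter, 1 member was higher under expansion, and without the filter 0 were higher at day 4 in FL. With only the compared libraries in the fit, 1 was higher and 6 lower under expansion, 2 were higher at day 4, and 0 were higher from expansion to day 4 in FL. For the interaction this is the same fit. The cause of these shifts was not tested.

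Leaving out 1 library at a time gave, under expansion, 1 to 2 members higher and 5 to 22 lower in both clones, and at day 4 1 higher throughout and 33 to 38 lower. For 1KI9 against 1D5 it gave 0 to 1 higher and 4 to 30 lower under expansion, and 0 higher and 1 to 5 lower at day 4. From expansion to day 4 it gave 0 to 1 higher and 48 lower in FL, and 0 higher and 47 lower in 1D5 and in 1KI9. The interaction gave 4 to 7 positive and 9 to 21 negative terms. Named genes lost their call in 52 results and kept it in 830 when a library was left out, and in 8 and 281 under the other settings.

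Whether replicate numbers pair the samples was not settled. Of 45 same-numbered pairs of libraries, 15 had deviations that correlated over 0.1, and 23 correlated best with their own number. The correlations ran from -0.18 to 0.546, and the highest were those of 1D5 with 1KI9 at day 4 (0.546 for replicate 2 and 0.382 for replicate 3). With the replicate block the counts stayed within 1.5 times: 12 lower under expansion, 36 at day 4, 25 for 1KI9 against 1D5 under expansion and 17 negative interaction terms. Depth was unknown, so no counting error can be given, which matters most for low values such as UBE2C in the clones. A planned search of the members' proteins for KEN boxes was not run, since no protein table was used here.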
